A study of Mus musculus with 18 samples.

Results

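The regions described here are places in the mouse heart genome, away from annotated promoters. In each, signal for RNA polymerase II (Pol II) and signal for the architectural protein CTCF shared a peak. The regions were taken from the union peak table of a chromatin immunoprecipitation sequencing (ChIP-seq) experiment on mouse ventricles. A union peak was kept when it lay on chromosomes 1 to 19, had no gene assigned within the 5000 nt promoter window, and had a mean normalized signal of at least 50 over the 6 Pol II libraries and of at least 50 over the 6 CTCF libraries. Of 101256 union peaks, 61738 were autosomal and distal, and 1385 of these (2.24%) met both thresholds. They are called distal Pol II/CTCF regions below, and because they were chosen by their mean Pol II and CTCF signal, those levels are described without a test.

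Pol II is the enzyme that transcribes protein-coding genes and many non-coding RNAs. It is concentrated at promoters, but it is also found at enhancers, where it makes short non-coding transcripts, inside genes and beyond gene ends, where it slows before release. CTCF is a zinc finger protein that binds a defined DNA motif and halts the cohesin ring as it extrudes chromatin loops. CTCF sites form many of the borders of topological domains and can lie beside enhancers and promoters whose contacts they channel.

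Chromatin came from adult ventricles, 2 hearts per preparation, of 3 genotypes, with 2 Pol II and 2 CTCF libraries and 1 control IgG library each. WT hearts were labelled only as wild type. Trdn-as KO mice carried a polyadenylation signal inserted by Cas9 into the first exon of Trdn-as, a non-coding RNA antisense to the calcium release gene Trdn, in embryonic stem cells, and were backcrossed to C57BL/6 and homozygous. Mettl3 KO hearts were Mettl3lox/lox:alphaMHC-MerCreMerpos, a tamoxifen-inducible deletion of the m6A RNA methyltransferase gene driven by a cardiomyocyte promoter, so that other heart cells keep Mettl3. Whether the WT hearts carried floxed alleles or received tamoxifen is not stated in the sources used here. Replicate libraries are not stated to come from separate animals, so p-values measure the spread between these libraries, which may be technical.

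The union peaks held a total normalized signal of 4046774 to 5185209 per Pol II library, 2871381 to 3106550 per CTCF library and 1795351 to 2070332 per IgG library. Spacing of the low values gave the worth of 1 read as 0.94 to 2.04 units in Pol II, 0.28 to 0.46 units in 5 of the 6 CTCF libraries and 2.55 to 6.57 units in IgG libraries, so that CTCF values rest on the most reads and IgG values on the fewest. The second Trdn-as KO Pol II library stood apart, with 18.6% of its uniquely mapped reads in union peaks against 35.5% to 42.6% in the other 5. Pol II signal summed over the 5 union peaks at the Trdn-as promoter was 648 and 716 (WT), 171 and 114 (Trdn-as KO) and 553 and 547 (Mettl3 KO), so the libraries labelled Trdn-as KO were the lowest. The Mettl3 promoter peak held 177 and 202 (WT), 203 and 161 (Trdn-as KO) and 240 and 235 (Mettl3 KO), which does not read the deletion. Over 6 peaks of the Y chromosome, Pol II summed to 279 and 326 (WT), 223 and 239 (Mettl3 KO) and 0 (both Trdn-as KO libraries), and sex and the Trdn-as genotype cannot be told apart.

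The share of distal peaks with both proteins varied with peak length. There were 4085 autosomal distal peaks with Pol II of at least 50, of which 33.9% also reached 50 for CTCF, and 9545 with CTCF of at least 50, of which 14.5% also reached 50 for Pol II. Among the 912 distal Pol II peaks within the quartiles of the regions' length, 76.1% reached the CTCF threshold, and signal was summed over the length of each peak. At promoter peaks, 58.7% of the 12217 with Pol II of at least 50 reached the CTCF threshold. The thresholds cut a continuous distribution. The regions just inside the Pol II limit lay in Ttn, the giant sarcomere protein gene, and in Nsmce1, with means of 50 each, and the 2 nearest regions outside had 49.8. For CTCF the nearest inside, in Sp2 and 239421 nt from the Gnao1 start, had 50, and the 2 nearest outside had 49.8.

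**Figure D1:**
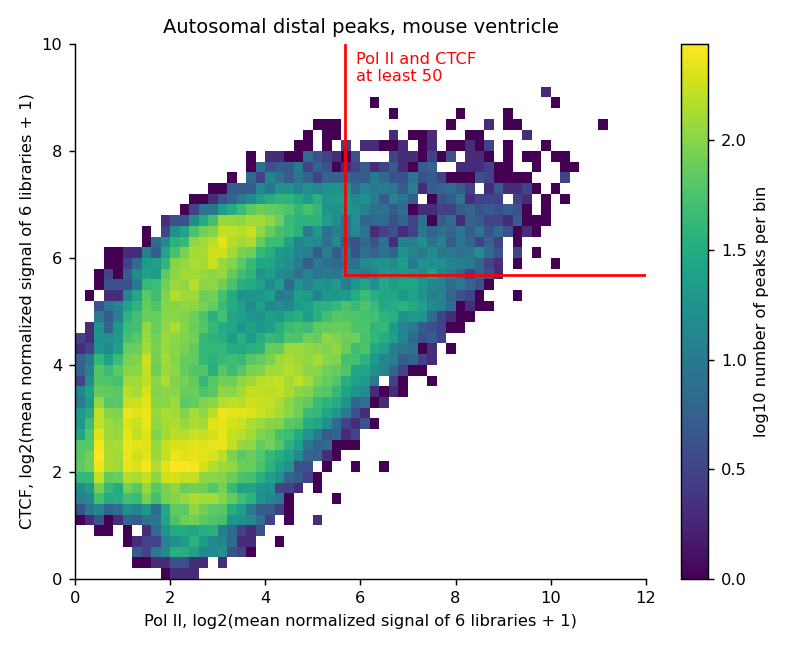
Mean Pol II signal (x axis) against mean CTCF signal (y axis) of the 61738 autosomal distal peaks, both as log2(mean of 6 libraries + 1), with colour giving the number of peaks per bin on a log10 scale. The red lines mark a mean of 50 on each axis and enclose the 1385 distal Pol II/CTCF regions, which lie beyond the 2 dense arms of peaks with mainly CTCF or mainly Pol II.

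Levels in single libraries spread around the pooled means that chose the regions. Across the 6 Pol II libraries the median region held 116 to 149 units and the values ran from 18 to 2870. Across the 6 CTCF libraries the median was 90 to 95 and the range 32 to 554. The lowest Pol II median, 116, was that of the second Trdn-as KO library, and 1198 of the 1385 regions (86.5%) had less Pol II there than in the first Trdn-as KO library. All regions passed the filter on low values, in both targets.

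Levels and length were compared across the regions as a description, since both levels were cut at 50. Over the 1385 regions, which share libraries, Spearman's rho between mean Pol II and mean CTCF was -0.01, while rho between region length and Pol II was 0.45 and between length and CTCF 0.47. Longer regions collect more of both signals. The regions had a median length of 1733 nt (quartiles 1423 and 2192), close to the 1744 nt of promoter peaks with both proteins, against 830 nt for the 4483 distal peaks with CTCF of at least 50 and Pol II under 10, and 590 nt for the 76 with Pol II of at least 50 and CTCF under 10. Union peaks merge the peaks of all libraries, so a long region can hold a Pol II site and a CTCF site side by side.

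The balance of the proteins split the regions into 3 groups. Pol II exceeded CTCF by more than 2 times in 562 regions (40.6%), CTCF exceeded Pol II by more than 2 times in 169 (12.2%), and 654 (47.2%) lay between. These ratios use the normalized values, whose scale differs between antibodies, and serve only to order the regions.

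Against IgG, an antibody with no chromatin target, both proteins stood above background. The regions were chosen for high Pol II and CTCF signal, so high ratios follow in part from that rule and are a description. RPM, the reads of a region scaled to the uniquely mapped reads of its library, were used here, because the normalized values of IgG and ChIP libraries are not on one scale. Pol II over IgG had a median of 6.48 (quartiles 4.17 and 9.76) and CTCF over IgG a median of 6.17 (quartiles 4.19 and 9.88). Only 11 regions had Pol II under 2 times IgG and 3 had CTCF under 2 times IgG. The CTCF ratio was below the 16.8 of distal CTCF peaks without Pol II and above the 5.15 of promoter peaks with both. By construction it was lower in the 562 regions led by Pol II (4.19) than in the 169 led by CTCF (12.7). IgG signal moved with the classes: it was 0.99 RPM per kb in the distal Pol II/CTCF regions, 1.12 in promoter peaks with both proteins and 0.61 in distal CTCF peaks without Pol II. Its part in the CTCF signal of the regions led by Pol II was not tested.

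**Figure D2:**
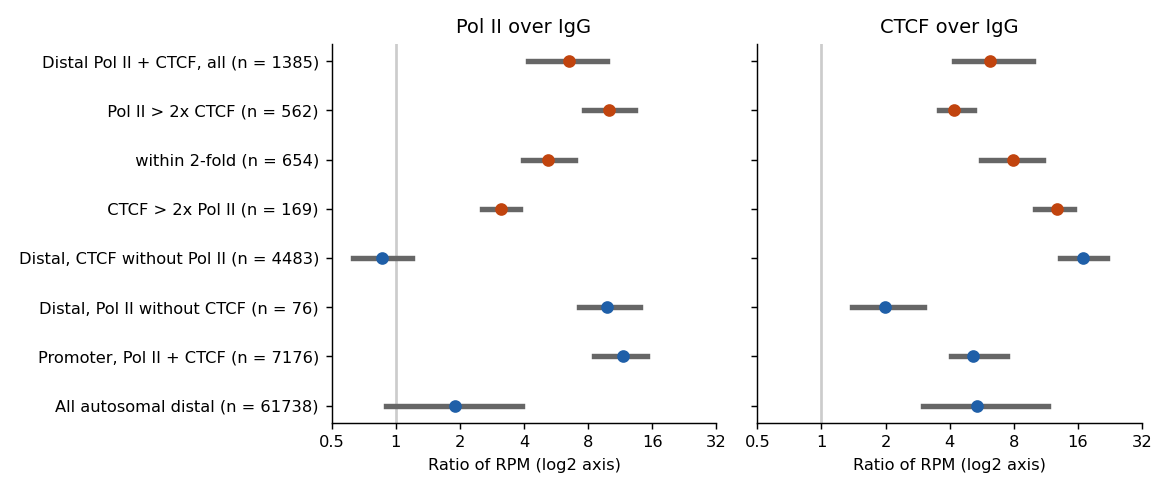
Pol II (left) and CTCF (right) over IgG, as ratios of RPM on a log2 axis, for groups of peaks named at the left with their number. Points are medians over peaks and bars run from the lower to the upper quartile, with distal Pol II/CTCF regions in orange. Their CTCF median of 6.17 lies between the 16.8 of distal CTCF peaks and the 5.15 of promoter peaks.

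Many of the regions lay inside or just beyond genes. Of the 1385, 798 (57.6%) overlapped the body of a protein-coding gene with a promoter peak in the table, close to the 56.6% of distal Pol II peaks without CTCF, against 51.9% of all autosomal distal peaks and 37.1% of distal CTCF peaks without Pol II. The median distance to the nearest listed gene start was 16714 nt, against 26727 nt for all autosomal distal peaks, 26772 nt for Pol II peaks without CTCF and 32232 nt for CTCF peaks without Pol II. A coding gene ended within 5000 nt of 232 regions (16.8%), close to the 17.1% of Pol II peaks without CTCF, against 10.1% of all autosomal distal peaks and 8.59% of CTCF peaks without Pol II. The share was 31.4% in the 169 regions led by CTCF, 17.3% in the balanced group and 11.7% in the 562 led by Pol II. Genes without a promoter peak were not counted, and these shares are descriptions with no test.

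The strongest Pol II signal was at chr14:34286302-34298327 (GRCm39, as are all coordinates), a 12026 nt region inside Ldb3, which encodes a Z-disc protein of striated muscle. Its Pol II values were 2659 and 2772 (WT), 2870 and 2262 (Trdn-as KO) and 1819 and 1580 (Mettl3 KO), and its CTCF values ran from 338 to 425. It was also the region with the most IgG, at 433, 381 and 387, yet Pol II stood 16.3 times and CTCF 4.17 times above IgG in RPM. The next were chr5:24806263-24810665, 14524 nt from the start of Chpf2, with Pol II from 1144 to 1634. Then came chr15:73617784-73625749 inside Ptp4a3, a protein tyrosine phosphatase gene, with 1101 to 1438, and chr15:85552976-85557492, 61692 nt from the start of Ppara, the fatty acid oxidation regulator, with 1116 to 1421.

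CTCF was strongest at chr11:98675562-98680824, 5518 nt from the start of Msl1 and 15730 nt from the end of the thyroid hormone receptor gene Thra, where the 6 libraries gave 510 to 554 and Pol II gave 808 to 1031. It was followed by chr15:76079556-76085297 inside Plec, the gene of the cytoskeletal linker plectin, with CTCF from 488 to 537 and Pol II from 810 to 1170. At chr10:21866904-21872649, with no listed coding gene start within 613714 nt, CTCF was 444 to 504 and Pol II 849 to 1116. These 3 held high levels of both proteins, whereas the fourth, inside Ctif on chromosome 18, was led by CTCF (426 to 479) with Pol II of 67 to 104, or 1.63 times IgG. The other regions with most IgG were the Msl1 region, one in Itpkb described below, and chr16:30003388-30008469, 77848 nt from the start of Cpn2, with IgG of 255, 204 and 401 beside CTCF of 293 to 346.

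Most regions stood alone: 1025 had no other within 20000 nt and 360 formed 152 runs. The densest run held 7 regions at chr12:86814294-86884045, between the genes Angel1 and Irf2bpl. Within it, the 1st and the 3rd region were led by CTCF, with CTCF of 418 to 469 and 284 to 305 against Pol II of 83 to 127 and 90 to 125. In the 4th and 6th the order was turned, with Pol II of 275 to 416 and 367 to 520 against CTCF of 129 to 155 and 114 to 146. The remaining 3 had CTCF of 46 to 73 and Pol II of 92 to 214. Runs of 6 lay inside Tns1, which encodes the focal adhesion protein tensin 1 (chr1:74025477-74077077), and inside Cuedc1 (chr11:88046106-88079449). By gene, 9 regions lay inside the fibroblast growth factor receptor gene Fgfr2, 8 in Tns1, 7 in Cuedc1, and 5 each in the transcription factor gene Nfix and in Gata4.

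**Figure D3:**
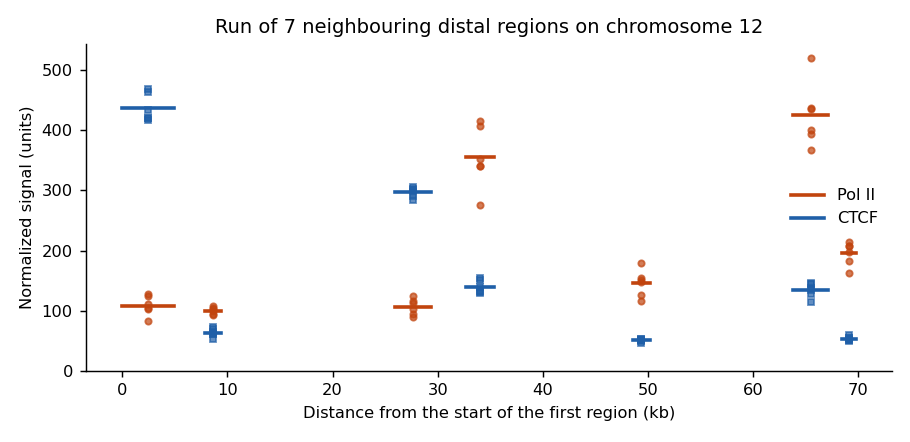
Pol II (orange circles) and CTCF (blue squares) in the 7 neighbouring regions on chromosome 12, plotted by distance in kb from the start of the first region, with the normalized signal on the y axis. Points are single libraries, 6 per protein, and each line spans the region at its mean. CTCF exceeds Pol II in the 1st and 3rd regions and Pol II exceeds CTCF in the others.

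A list of 50 cardiac genes (sarcomere, calcium handling, conduction, metabolism and transcription factors) gave few neighbours. For 16 of the regions (1.16%) the nearest promoter peak belonged to one of these genes, 12 genes in all, against 0.779% of all autosomal distal peaks, and 18 regions lay inside 11 of them. The 6 of those 16 with the highest mean Pol II are named here. They were led by the Ldb3 region above and by chr14:63481226-63486979 inside Gata4, which encodes a core cardiac transcription factor. The 9387 nt region chr1:135777655-135787041 covered the end of Tnnt2, the cardiac troponin T gene. The other 3 were chr13:12145878-12149399, 24047 nt from the start of the calcium release channel gene Ryr2, chr5:51709183-51711789 inside Ppargc1a, a master regulator of mitochondrial genes, and chr17:28703644-28706405 inside the glucocorticoid-induced gene Fkbp5. In Ppargc1a Pol II was 413 and 393 (WT), 405 and 259 (Trdn-as KO) and 411 and 400 (Mettl3 KO). In Fkbp5 it was 229 and 237, 251 and 234, and 327 and 352. Neither passed the test against WT. No region lay within 1000000 nt of the Trdn-as promoter, the nearest being chr10:30686305-30687350, 2444828 nt away.

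Genotypes were then compared region by region, with limma on log2(signal + 1) across all tested peaks and Benjamini-Hochberg adjustment. Differences are log2 changes on that scale with their standard errors. Median differences of the regions were small and are set beside those of all peaks. For Pol II, the median difference from WT was -0.10 in Trdn-as KO, against -0.07 over all 52655 peaks tested, and 0.08 in Mettl3 KO, against 0.08. For CTCF it was 0.02 and -0.02, against 0.04 and -0.06 over 60649 peaks. With all 6 libraries of a target scaled to one total, the Mettl3 KO Pol II median became -0.08 for the regions and -0.08 for all peaks. The CTCF medians of the regions changed sign too, to -0.02 in Trdn-as KO (all peaks -0.003) and 0.03 in Mettl3 KO (all peaks -0.01). Without the second Trdn-as KO library, the Trdn-as KO Pol II median became 0.05, and without the first -0.26.

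Loss of Trdn-as was accompanied by lower Pol II at 8 regions and higher Pol II at none of the 1385, which is 0.578% of the regions against 0.304% of all peaks tested (0.224% lower and 0.0798% higher). At an unadjusted p under 0.05 there were 119 lower and 13 higher, 9.53% of the regions against 7.70% of all peaks tested. The 4 with the smallest adjusted p are given in full.

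At chr5:24954717-24957472, 64187 nt from the start of Nub1, Pol II was 428 and 431 (WT), 261 and 206 (Trdn-as KO) and 489 and 479 (Mettl3 KO). Both Trdn-as KO values lay below all others, with a difference of -0.89 ± 0.17 from WT (adjusted p = 0.0026) and of -1.06 ± 0.17 from Mettl3 KO (adjusted p = 7.1e-05). CTCF there ran from 121 to 154 and did not pass.

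Inside Itpkb, an inositol trisphosphate kinase gene, chr1:180228399-180236870 held Pol II of 846 and 894 (WT), 612 and 483 (Trdn-as KO) and 632 and 509 (Mettl3 KO). Both KO groups lay below WT, by -0.68 ± 0.15 (adjusted p = 0.017) and -0.62 ± 0.15 (adjusted p = 0.022). Inside Zbtb16, a zinc finger repressor gene, chr9:48646484-48649479 held 245 and 288 (WT), 174 and 110 (Trdn-as KO) and 180 and 162 (Mettl3 KO), and the Trdn-as KO difference was -0.94 ± 0.21 (adjusted p = 0.024). Inside Art3, chr5:92533636-92536324 held 335 and 388 (WT), 227 and 181 (Trdn-as KO) and 205 and 232 (Mettl3 KO), with differences of -0.83 ± 0.19 (adjusted p = 0.026) and -0.72 ± 0.19 (adjusted p = 0.039). IgG, with 1 library per genotype, was also lower in Trdn-as KO than in WT at all 3, with 8.41, 6.65 and 9.43 RPM (WT, Trdn-as KO, Mettl3 KO) at Itpkb, 2.90, 1.53 and 3.72 at Zbtb16 and 2.66, 1.91 and 2.25 at Art3. Its part in the Pol II differences was not tested.

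The others included the Tnnt2 region, with 1294 and 1491 in WT against 1084 and 839 (-0.54 ± 0.13, adjusted p = 0.035), and regions near Wfs1 (-1.18) and in Mast4 (-0.93). In all 8 the second Trdn-as KO library was equal to or lower than the first. Without that library 1 region passed (0.0722%, against 0.0798% of all peaks), without the first 128 did (9.24%, against 3.62% of all peaks), and without either WT library 0 did (against 0.0361% and 0.0437% of all peaks). Among cell type marker promoters, 1 of 10 cardiomyocyte genes was lower in Trdn-as KO, Myh6 (-0.35 ± 0.08, adjusted p = 0.029). At an unadjusted p under 0.05 there were 3, with the Tnnt2 (-0.35 ± 0.11, adjusted p = 0.24) and Pln (-0.25 ± 0.10, adjusted p = 0.49) promoters among them. Of the fibroblast genes 0 of 8 passed (1 at an unadjusted p under 0.05). The regions in Itpkb and Art3 were among those lower in both knockouts, which share the WT libraries, and this overlap was not counted over all peaks.

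Deletion of Mettl3 in cardiomyocytes was accompanied by a difference in Pol II at 29 regions, 21 lower and 8 higher. That is 2.09% against 1.19% of all peaks tested (0.482% lower, 0.712% higher). The share was 1.41% in promoter peaks with both proteins and 5.26% in the 76 distal Pol II peaks without CTCF. Shares over all peaks include many weak peaks with larger standard errors, as given above. At an unadjusted p under 0.05 the counts were 104 lower and 168 higher, 19.6% of the regions against 15.5% of all peaks tested. The balance of the calls turned with the fit: with the compared genotypes only there were 175 higher and 75 lower, 18.1% of the regions against 9.23% of all peaks (4078 higher, 783 lower). Equal totals gave 31 higher and 143 lower, 12.6% against 4.19% (825 higher, 1380 lower), and size factors from the Pol II libraries alone 49 higher and 83 lower, 9.53% against 4.14% (1244 higher, 935 lower).

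The smallest adjusted p was at chr10:69054563-69057670, 131098 nt from the start of Cdk1, where Pol II was 546 and 604 (WT), 454 and 330 (Trdn-as KO) and 236 and 218 (Mettl3 KO). The Mettl3 KO values were the lowest, by -1.34 ± 0.17 against WT (adjusted p = 6.1e-07) and with a Trdn-as KO minus Mettl3 KO difference of 0.77 ± 0.17 (adjusted p = 0.010). CTCF did not pass there, with 76 and 80 (WT) against 94 and 89 (Mettl3 KO).

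The Ldb3 region, whose values are given above, had lower Pol II in both Mettl3 KO libraries than in any other library, by -0.68 ± 0.11 (adjusted p = 0.00014). The promoter peak of Ldb3 differed by -0.06 ± 0.12 (adjusted p = 0.84). At chr6:24605597-24610955, 184 nt beyond the end of the thin filament gene Lmod2, Pol II was 741 and 815 (WT), 716 and 535 (Trdn-as KO) and 489 and 346 (Mettl3 KO), a difference of -0.92 ± 0.16 (adjusted p = 0.00038). CTCF there was 1.98 times IgG. Inside Usp2, a deubiquitinase gene under circadian control, chr9:43994680-44000125 held 1441 and 1465 (WT), 1332 and 1055 (Trdn-as KO) and 868 and 896 (Mettl3 KO), a difference of -0.72 ± 0.13 (adjusted p = 0.00053). IgG at the Usp2 region was 5.39, 6.45 and 4.53 RPM in the same order, and its part was not tested.

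Among the remaining 17 lower regions, the one near Ryr2 held 588 and 624 (WT) against 351 and 349 (Mettl3 KO) (-0.79 ± 0.16, adjusted p = 0.0035), and its CTCF signal was 1.71 times IgG, the lowest ratio of the 1385. The one in Tef, a clock output transcription factor gene, held 1359 and 1275 against 850 and 964 (-0.54 ± 0.13, adjusted p = 0.020). The one in Nr4a1, an orphan nuclear receptor gene, held 456 and 406 against 259 and 295 (-0.64 ± 0.17, adjusted p = 0.043). In Gmpr, which encodes GMP reductase, Pol II was 87 and 92 (WT), 100 and 92 (Trdn-as KO) and 33 and 32 (Mettl3 KO), while CTCF stayed between 173 and 189 in all 6 libraries. The Gmpr difference was -1.43 ± 0.28 against WT (adjusted p = 0.0023) and the Trdn-as KO minus Mettl3 KO difference 1.53 ± 0.28 (adjusted p = 0.00075).

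Of the 8 higher regions, the clearest was chr7:89166414-89167744, 112851 nt from the start of the Wnt receptor gene Fzd4, with Pol II of 63 and 79 (WT), 96 and 69 (Trdn-as KO) and 190 and 187 (Mettl3 KO). Both Mettl3 KO values were far above the other 4, a difference of 1.41 ± 0.25 (adjusted p = 0.00053). At chr19:46511932-46513729, 21791 nt from the start of the ubiquitin ligase gene Trim8, Pol II was 91 and 100 (WT), 140 and 102 (Trdn-as KO) and 211 and 197 (Mettl3 KO), a difference of 1.09 ± 0.23 (adjusted p = 0.0052). A region on chromosome 18, 145339 nt from the start of Arhgap12, held 266 and 271 (WT), 301 and 338 (Trdn-as KO) and 396 and 461 (Mettl3 KO) (0.67 ± 0.18, adjusted p = 0.037). In the Gata4 region Pol II was 1073 and 1098 (WT), 1203 and 1087 (Trdn-as KO) and 1462 and 1519 (Mettl3 KO) (0.46 ± 0.12, adjusted p = 0.044), and the Gata4 promoter peak differed by 0.25 ± 0.15 (adjusted p = 0.40). IgG was also highest in Mettl3 KO at 3 of these 4, with 1.69, 1.33 and 2.91 RPM (WT, Trdn-as KO, Mettl3 KO) at the Trim8 region, 1.33, 1.71 and 2.25 at the Arhgap12 region and 4.65, 3.99 and 7.04 at the Gata4 region, but not at the Fzd4 region (1.09, 0.38 and 0.66). Its part in the Pol II differences was not tested.

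Inside Nfix, chr8:85438659-85439968 changed in both proteins. Pol II was 49 and 52 (WT), 83 and 61 (Trdn-as KO) and 94 and 141 (Mettl3 KO), a difference of 1.17 ± 0.28 (adjusted p = 0.018). CTCF was 32 and 39 (WT), 58 and 46 (Trdn-as KO) and 66 and 67 (Mettl3 KO), a difference of 0.89 ± 0.15 (adjusted p = 0.022). Mean CTCF was 35.5 in WT and 51.3 over all 6 libraries, so this region met the threshold of 50 only through the knockouts. Its CTCF call thus rests on values that also chose it. The Nfix and Ldb3 regions were each called against WT for both proteins, and in Ldb3 the calls came from different knockouts. Such overlap was not counted over all peaks.

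**Figure D4:**
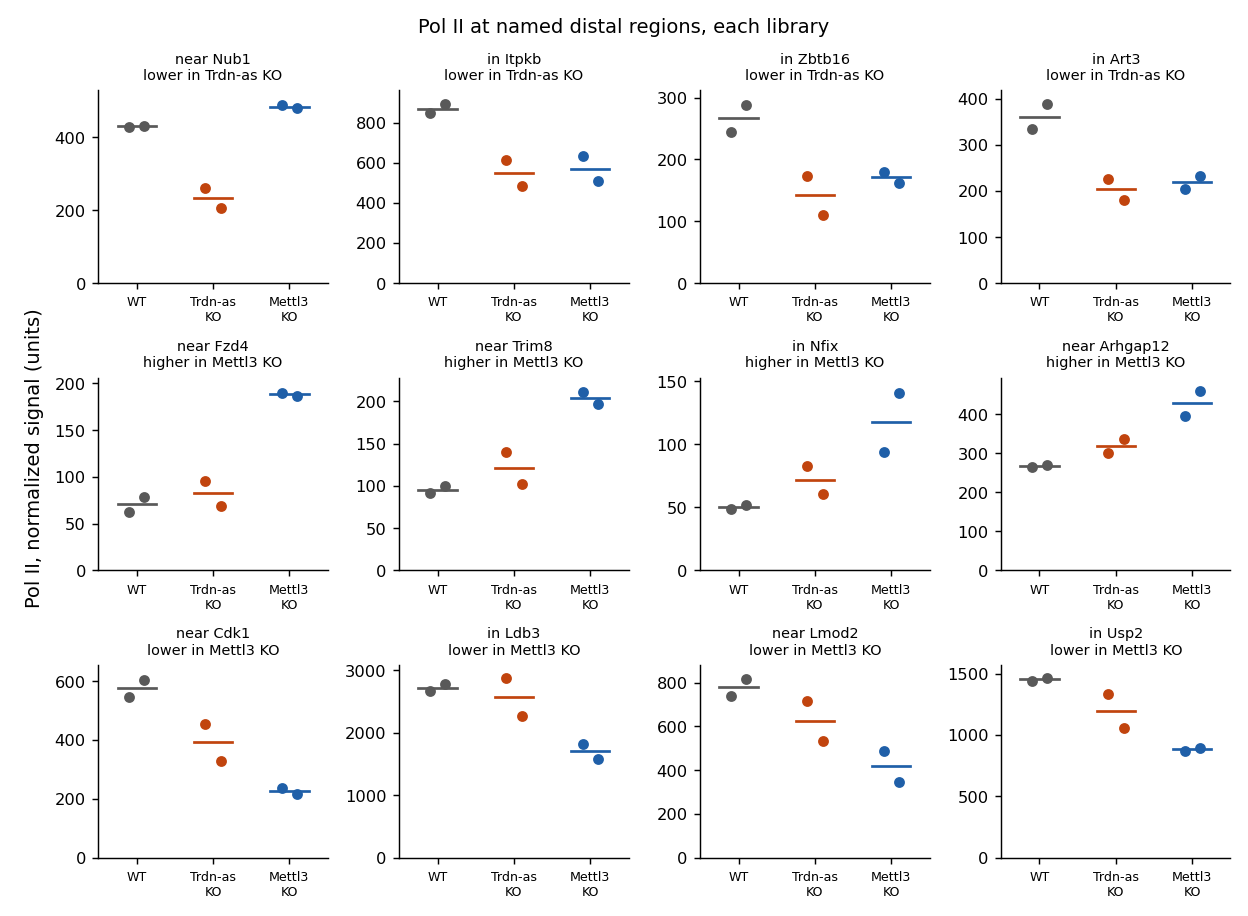
Pol II signal (y axis, normalized units, from 0) in each library at the 12 regions given for the comparisons with WT, 4 lower in Trdn-as KO, 4 higher and 4 lower in Mettl3 KO. Points are libraries, 2 per genotype, lines are means, and titles give the gene that holds the region or the nearest protein-coding gene start. Both libraries of the named knockout lie on one side of both WT libraries in each panel because the regions were chosen so.

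The Mettl3 KO Pol II comparison comes with limits that touch each of its calls. Leaving out either WT or either Mettl3 KO library left 0 of the 29 calls, whereas leaving out the first or the second Trdn-as KO library, which only adds to the estimate of spread, gave 233 (162 higher, 71 lower) and 235 (165 higher, 70 lower), against 8.65% and 8.84% of all peaks, so that higher calls then outnumbered lower ones. Fibroblast marker promoters moved with the genotype: 5 of 8 (Col1a1, Col1a2, Col3a1, Pdgfra and Tcf21) had higher Pol II in Mettl3 KO hearts, with the list summing to 928 and 991 (WT), 1400 and 990 (Trdn-as KO) and 1944 and 1942 (Mettl3 KO). Of the cardiomyocyte markers 0 of 10 passed limma's test in either direction (at an unadjusted p under 0.05, Myl3 was at 0.65 and Ryr2 at -0.34), with sums of 29513 and 31468, 30054 and 22975, and 30113 and 30445. Of the leukocyte markers with a promoter peak 1 of 6 (Spi1) was higher, and of 7 endothelial and 3 skeletal muscle markers tested none passed (1 and 0 at an unadjusted p under 0.05). Of the hepatocyte markers 4 of 6 had no promoter peak, and the rest summed to 18 to 41 in each library. The part of cell composition in the calls was not tested, and more cells of a type and more Pol II per cell cannot be told apart in whole tissue.

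Called regions were compared with the nearest promoter peak's gene, read at its promoter peak with most Pol II. Such a peak was tested for 30 of the 37 calls against WT, and its difference had the sign of the region's in 25 of the 30. It passed the test itself in 3: Cyp26b1, which encodes a retinoic acid-degrading enzyme (-1.47 ± 0.26, adjusted p = 0.00053), the carboxylesterase gene Ces1d (-2.86 ± 0.30, adjusted p = 1.2e-09), and a gene listed only by its identifier beside the Usp2 region (-1.51 ± 0.33, adjusted p = 0.0065). Over the 1204 regions with a tested promoter, 58.5% had the promoter's sign in Trdn-as KO and 56.6% in Mettl3 KO, with Spearman's rho of 0.16 and 0.17. These pairs of values share the same libraries.

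CTCF differed at 5 regions in Trdn-as KO hearts, 4 higher and 1 lower, or 0.361% against 0.587% of all peaks tested (0.348% higher, 0.239% lower). With each library scaled to the same total the counts were 5 higher and 5 lower, and 0.795% of all peaks were called. The count was thus not above the share over all peaks. At an unadjusted p under 0.05 there were 91 higher and 51 lower, 10.3% of the regions against 10.2% of all peaks tested.

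A pair of neighbouring regions on chromosome 6 changed in opposite directions. At chr6:128736701-128738571, 172773 nt from the start of the C-type lectin gene Clec2g, CTCF was 171 and 172 (WT), 245 and 221 (Trdn-as KO) and 183 and 178 (Mettl3 KO), a difference of 0.44 ± 0.08 (adjusted p = 0.0092). At chr6:128775348-128777320 it was 210 and 205 (WT), 161 and 145 (Trdn-as KO) and 219 and 209 (Mettl3 KO), a difference of -0.44 ± 0.08 (adjusted p = 0.011). Both also differed from Mettl3 KO, with adjusted p of 0.027 and 0.0034. Pol II at the second was 99 and 87 (WT), 45 and 49 (Trdn-as KO) and 127 and 98 (Mettl3 KO), and passed against Mettl3 KO (-1.23 ± 0.27, adjusted p = 0.0073) but not against WT. IgG at the second was 2.30 RPM in WT, 1.13 in Trdn-as KO and 1.99 in Mettl3 KO, and at the first 1.88, 1.91 and 1.47, and its part was not tested.

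The other 3 were higher. CTCF in the Ldb3 region was 338 and 347 (WT), 425 and 404 (Trdn-as KO) and 391 and 404 (Mettl3 KO) (0.27 ± 0.06, adjusted p = 0.031). At chr9:34949825-34951009, 1813 nt from the end of the cell adhesion gene Kirrel3, it was 56 and 52, 76 and 88, and 52 and 51 (0.59 ± 0.12, adjusted p = 0.032). At chr13:78311070-78312079, 35797 nt from the start of Nr2f1, a nuclear receptor gene, it was 44 and 40, 58 and 74, and 53 and 56 (0.63 ± 0.14, adjusted p = 0.048). IgG, with 1 library per genotype, moved the same way at the Kirrel3 region (1.52, 2.83 and 1.59 RPM) and the Nr2f1 region (0.85, 1.53 and 0.81 RPM). These rest on few reads: they stand for 64, 98 and 55 units and for 36, 53 and 28 units. In the same order of genotypes, 1 IgG read was worth 2.55, 6.57 and 4.61 units. The part of IgG in these CTCF differences was not tested.

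In Mettl3 KO hearts CTCF differed at 7 regions, 4 higher and 3 lower, or 0.505% against 0.185% of all peaks tested (0.0989% higher, 0.0857% lower). The share was 0.181% in promoter peaks with both proteins and 0.0446% in distal CTCF peaks without Pol II. Median standard errors were 0.11 in the regions and 0.17 over autosomal peaks. Size factors from the CTCF libraries alone gave 24 higher and 11 lower, 2.53% of the regions against 1.25% of all peaks (507 higher, 254 lower), and the replicate block left 0 of the 7. At an unadjusted p under 0.05 there were 100 higher and 145 lower, 17.7% of the regions against 15.7% of all peaks tested. Besides the Nfix region, CTCF was higher at chr9:57998863-58000910, 85169 nt from the start of the steroid synthesis gene Cyp11a1, with 51 and 45 (WT), 55 and 56 (Trdn-as KO) and 83 and 77 (Mettl3 KO) (0.73 ± 0.12, adjusted p = 0.025). IgG there was 1.02 RPM in WT, 1.13 in Trdn-as KO and 3.86 in Mettl3 KO, 1 library each, and its part in the CTCF difference was not tested. Mean CTCF at the Cyp11a1 region was 48 in WT and 61.2 over all 6 libraries, so WT alone was under the threshold of 50. CTCF was higher inside Tns1 at chr1:74001139-74003328, with 79 and 74, 94 and 88, and 112 and 117 (0.58 ± 0.10, adjusted p = 0.035), and at chr8:122960314-122961641, 23718 nt from the start of Zfp469, with 78 and 74, 88 and 92, and 115 and 105 (0.53 ± 0.10, adjusted p = 0.049). IgG was 1.69, 3.24 and 2.65 RPM at the Tns1 region, 1.40, 2.28 and 1.18 RPM at the Zfp469 region and 1.21, 0.58 and 0.66 RPM at the Nfix region. In the Cyp11a1, Tns1 and Zfp469 regions the Trdn-as KO libraries lay between the other groups.

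CTCF was lower in a region on chromosome 18, 203159 nt from the start of Nrep, with 83 and 75 (WT), 58 and 60 (Trdn-as KO) and 47 and 51 (Mettl3 KO) (-0.68 ± 0.12, adjusted p = 0.035), and at chr10:53338380-53340429, 82337 nt from the start of Cep85l, with 74 and 76, 64 and 63, and 48 and 50 (-0.60 ± 0.12, adjusted p = 0.048). IgG was 1.40, 1.91 and 0.66 RPM at the first and 2.54, 2.46 and 1.47 RPM at the second, in the same order of genotypes, and its part was not tested. Pol II passed against WT at neither of these. As with Trdn-as KO, leaving out any 1 CTCF library left 0 calls.

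**Figure D5:**
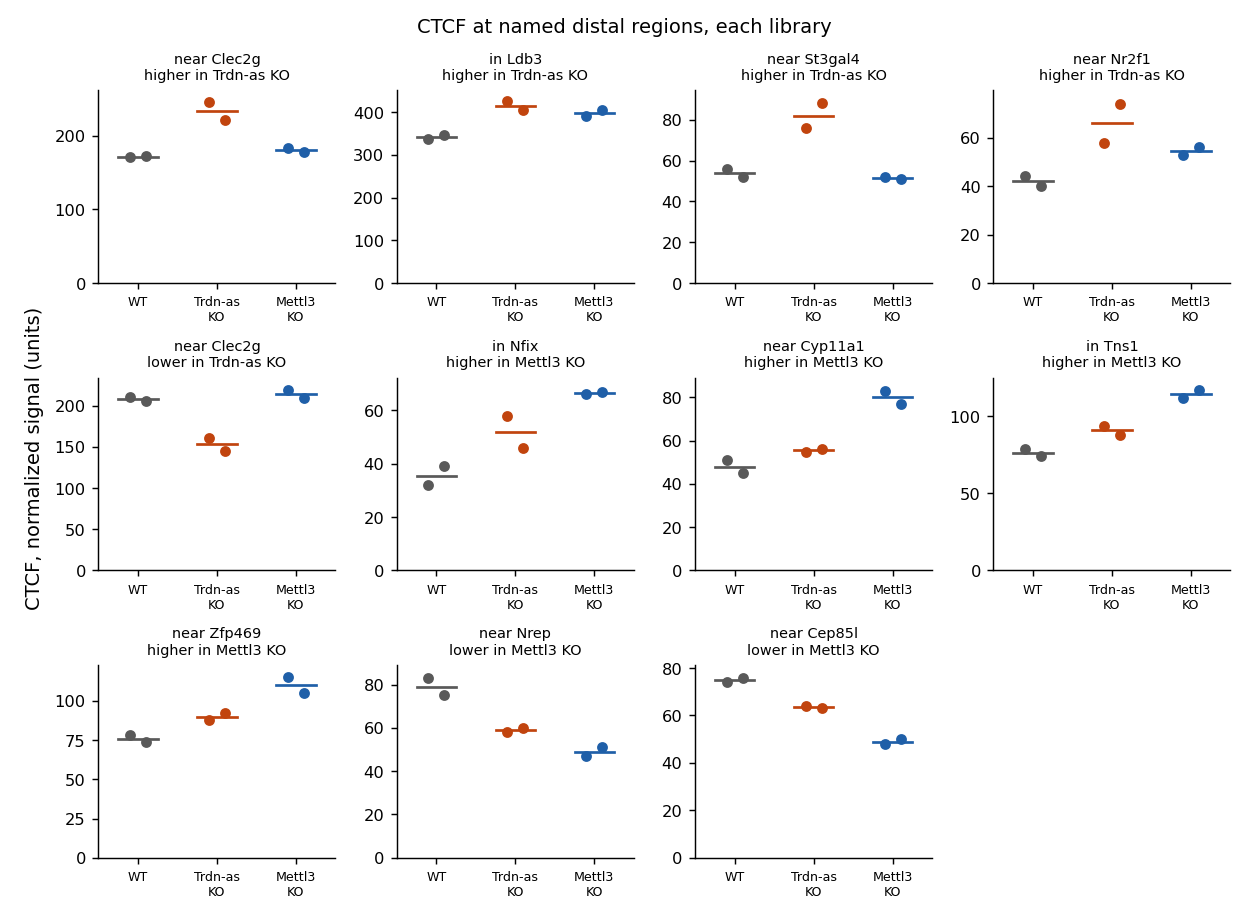
CTCF signal (y axis, normalized units, from 0) in each library at 11 of the 12 regions called against WT, 5 for Trdn-as KO and 6 for Mettl3 KO. Points are libraries, 2 per genotype, lines are means, and titles give the gene that holds the region or the nearest protein-coding gene start. The pair of panels near Clec2g shows 1 region higher and its neighbour lower in Trdn-as KO.

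Set directly against each other, the knockouts differed in Pol II at 32 regions, 6 higher and 26 lower in Trdn-as KO, or 2.31% against 1.5% of all peaks tested (0.355% higher, 1.15% lower). In CTCF they differed at 15, 9 higher and 6 lower, or 1.08% against 1.37% (0.948% higher, 0.417% lower). For Pol II the share was 1.94% in promoter peaks with both proteins and 14.5% in distal Pol II peaks without CTCF. The direction of these counts depended on the scaling: with all libraries of a target at one total, Pol II gave 72 higher and 33 lower (all peaks 840 and 636) and CTCF 8 higher and 40 lower (all peaks 531 and 693). Without the second Trdn-as KO library the Pol II counts were 10 higher and 3 lower, against 58 higher and 71 lower over all 52655 peaks.

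Median differences were also taken within the 3 groups of protein balance. In Mettl3 KO hearts the median Pol II difference from WT was 0.16 in the regions led by Pol II, 0.04 in the balanced group and -0.09 in those led by CTCF. In Trdn-as KO hearts the median CTCF difference was -0.05, 0.05 and 0.09. The other 2 comparisons had no such order, with -0.08, -0.14 and -0.11 for Pol II in Trdn-as KO and -0.04, -0.01 and -0.02 for CTCF in Mettl3 KO. The distal CTCF peaks without Pol II had a median CTCF difference of 0.11 in Trdn-as KO, and the promoter peaks with both proteins a median Pol II difference of 0.26 in Mettl3 KO. Groups were set from the same libraries, so these medians are descriptions.

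A list of genes for CTCF, cohesin with its loader and release factors, and other architectural or chromatin factors (Yy1, Zfp143, Ctcfl, Maz, Adnp, Chd8 and Bptf) was read at promoter peaks. None of the 16 genes with a peak, of 18 listed, passed limma's test in either knockout (0 in Trdn-as KO and 4 in Mettl3 KO at an unadjusted p under 0.05). Pol II at the Ctcf promoter was 340 and 395 (WT), 439 and 324 (Trdn-as KO) and 478 and 474 (Mettl3 KO) (0.38 ± 0.17 in Mettl3 KO, adjusted p = 0.27). At Rad21, the cohesin kleisin subunit gene, it was 252 and 220, 274 and 169, and 281 and 285 (0.26 ± 0.20 in Mettl3 KO, adjusted p = 0.54). The median difference over the list was -0.09 in Trdn-as KO and 0.28 in Mettl3 KO, beside -0.04 and 0.26 over promoter peaks with both proteins, a level that depends on the scaling as given above for all peaks.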

How the data were processed

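The authors trimmed reads with Trimmomatic 0.39, aligned them with STAR 2.7.11b to mm39, removed duplicates with Picard 3.1.1, merged MACS peaks into union peaks, counted reads with featureCounts and normalized all libraries together with DESeq2 1.36.0. The deposited table gives that normalized signal as whole numbers, so no count test was run. They were tested with limma 3.58.1 in R 4.3.3 (trend) on log2(signal + 1), over the 6 libraries of a target, on peaks that reached 10 in 2 or more of them, with Benjamini-Hochberg adjustment at 0.05. On simulated data for Mettl3 KO against WT, a 2 log2 change was recovered at 62.5% of 200 changed Pol II peaks with 7 false calls among 52655 peaks. For CTCF it was recovered at 99% of 200 peaks with 1 false call among 60649. The simulation drew normal noise whose spread followed the level smoothly, as the trend assumes, with no deviant library. Its change also exceeds every region difference given here, so these rates do not carry over to the calls.

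RPM used the value of 1 read found from the spacing of low values and the study's uniquely mapped reads. The first Mettl3 KO CTCF library could not be resolved and was left out of ratios to IgG. Regions are printed as deposited. No sequence of the mm39 build was read, and input libraries were not analysed here.

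Named regions were up to 4 per direction and comparison with WT (smallest adjusted p, both knockout values beyond both WT values), the 4 highest for Pol II, CTCF and IgG, those at the thresholds, the densest run, and 6 beside cardiac genes. The other called regions that are named (in Tnnt2, Tef, Nr4a1 and Gmpr, near Ryr2 and others) and the naming by host or nearest coding gene were chosen after their values were seen. The regions and gene lists were chosen with earlier results of these data known. Alternatives covered scaling, filter, pseudocount, variance trend, replicate block, thresholds and leaving out each library. Some regions are not reported here.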

Additional observations from a re-analysis of the deposited data

How the results depend on the processing

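With 2 libraries per group the calls were few and depended on the model. Among 24 named region differences, 0 of 353 recomputed values changed sign, 128 stayed past the threshold and 225 did not. The 0 was fixed in advance wherever the scaling was kept. Each of the 24 had been named for having both knockout values beyond both WT values. All 24 passed with a pseudocount of 5 and with both other scalings over peaks, and none without the filter on low values, without the variance trend, or without either WT or either Mettl3 KO library. Where 1 library was left out, the lone sample was assumed to vary like the other groups. The causes of these losses were not tested. The smallest members rest on few reads, which limits Pol II more than CTCF.

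The counts below are in the order Trdn-as KO against WT, Mettl3 KO against WT and Trdn-as KO against Mettl3 KO. Reported counts were 8, 29 and 32 for Pol II and 5, 7 and 15 for CTCF, beside 0.304%, 1.19% and 1.5%, and 0.587%, 0.185% and 1.37%, of all peaks tested. The share of all peaks moved with the settings too. Without the filter all 6 were 0, beside 0.00198%, 0% and 0.000988% of all peaks for Pol II and 0.0573%, 0% and 0.0721% for CTCF. Without the variance trend all 6 were 0 too, beside 0.0076%, 0.0038% and 0.0228%, and 0.257%, 0% and 0.402%. With equal totals they were 34, 174 and 105 for Pol II and 10, 31 and 48 for CTCF, beside 0.712%, 4.19% and 2.80%, and 0.795%, 1.11% and 2.02%, of all peaks. With size factors of the target alone they were 20, 132 and 90, and 10, 35 and 50, beside 0.511%, 4.14% and 2.80%, and 0.815%, 1.25% and 2.10%. A pseudocount of 5 gave 10, 45 and 54 for Pol II (0.437%, 1.87% and 2.43% of all peaks). With the compared genotypes only, Pol II gave 0, 250 (175 higher, 75 lower) and 2 (0.0893%, 9.23% and 0.243% of all peaks) and CTCF 0, 0 and 0 (0.061%, 0% and 0.0429%). With library sizes taken from uniquely mapped reads, chosen after seeing the data, Pol II gave 0, 0 and 0 (0.241%, 0.0627% and 0.420% of all peaks), and the Trdn-as KO median moved to -0.65 over all peaks and -0.70 over the regions. An adjusted p below 0.01 left 1, 10 and 7 for Pol II and 1, 0 and 3 for CTCF. Members with both means at least 100 gave 5, 10 and 12, and 2, 0 and 1. Leaving out the tenth of members with most IgG gave 5, 19 and 26 for Pol II and 4, 7 and 15 for CTCF. Both of these subsets use the calls of the main fit, whose shares of all peaks are given above. For an adjusted p below 0.01 no share of all peaks is given, so those counts are not set against all peaks. Leaving out each library in turn gave 0 to 128, 0 to 235 and 0 to 433 for Pol II, the highest beside 3.62%, 8.84% and 18.1% of all peaks, and 0 to 0 in each CTCF comparison (at most 0.0627% of all peaks).

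The number of members was 370 with both means at least 100, 4392 with both at least 25 and 1448 with means over WT libraries alone. Replicate numbers did not pair the libraries, with correlations of same-numbered deviations from -0.24 to 0.01, and the replicate block gave 6, 27 and 32 calls for Pol II and 2, 0 and 4 for CTCF, beside 0.382%, 1.44% and 1.80%, and 0.389%, 0.0033% and 0.620%, of all peaks. For CTCF in Trdn-as KO against WT, where the correlation was -0.24, the crossed pairing, added after seeing the data, gave 7 calls (0.829% of all peaks).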
